A study of Mus musculus with 24 samples.

Results

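The astrocyte identity and reactivity genes are 10 genes chosen by symbol, Gfap, Vim, Serpina3n, Agt, Clu, Aqp4, Gja1, Aldh1l1, S100b and Sox9, and all 10 were found among the 24411 genes listed in each hippocampal table. The rule, a list of symbols, used no measured value, but the list was chosen with earlier results of these data known. Bulk RNA was sequenced from the whole hippocampus of 17 aged male C57/Bl6 mice, 20 months old, that had received 8 tail vein injections of 100 µl over 24 days. 5 mice received saline, 6 received the young blood plasma preparation (plasma of 3-month-old mice, here young plasma) and 6 received the young platelet fraction, the platelet pellet spun from such plasma and resuspended in saline (here young platelets). The saline mice served as the control for both treatments, so the 2 comparisons with saline share these libraries. Levels of the same genes were also read in 7 libraries of CD11b-selected hippocampal cells (the microglia libraries below). Those came from aged C57/Bl6 mice given saline (n = 3) or platelet factor 4 (n = 4). The study asked which transcripts of the aged hippocampus change after systemic administration of young blood components, and the values below give this for the astrocyte genes.

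Astrocytes are the glia that take up glutamate and potassium, cover the blood vessels with water channel-rich endfeet and couple to one another through gap junctions. When tissue is injured or inflamed, and also with age, they become reactive, with more of the intermediate filaments GFAP and vimentin and more of secreted acute-phase proteins such as SERPINA3N. Gfap and Vim encode these filaments, Serpina3n a secreted protease inhibitor, Agt the precursor of the angiotensin peptides and Clu the secreted chaperone clusterin. Aqp4 encodes the endfoot water channel aquaporin 4, Gja1 the gap junction protein connexin 43, Aldh1l1 a folate enzyme used as a general astrocyte marker, S100b a calcium-binding protein and Sox9 a transcription factor of the astrocyte lineage.

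The libraries held 6140510 to 10522699 reads after saline, 6586357 to 7739868 after young plasma and 6763608 to 7438930 after young platelets. Each value below is a normalized count, the number of reads of a gene divided by a scaling factor of the library, and no member had fewer than 126 reads in a library. The first principal component took up 25.2% of the variance and set 5 libraries apart: saline mice 7146 and 7152, plasma mice 7147 and 7150, and platelet fraction mouse 7148. Their mouse numbers lie between 7146 and 7152, a range that also holds platelet fraction mouse 7151, which did not stand apart. Each gene named below as passing between groups over all libraries, or the count of its list, is given with and without these 5 libraries. The same holds for pairs of members. No marker of ependymal cells, choroid plexus, oligodendrocytes, endothelium, fibroblasts, microglia or neurons was at 0 in all 17 libraries. In bulk tissue, fewer cells of a type and less RNA per cell cannot be told apart.

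The genes lie on different chromosomes with 2 exceptions, Gfap and Sox9 on chromosome 11 and Gja1 and S100b on chromosome 10. In RefSeq positions of GRCm38, Vim spans chr2:13574311-13582826 and Serpina3n chr12:104406646-104414334 on the plus strand, and Gfap chr11:102887336-102897200 and Agt chr8:124556587-124569706 on the minus strand. Promoter windows from 250 bases before to 50 bases after the start site were found in RefSeq (GRCm38.p6) for 7 of the 10 genes. Those of Vim (chr2:13574061-13574360, plus strand), Gfap (chr11:102897151-102897450, minus strand) and Agt (chr8:124569657-124569956, minus strand) are printed 5′ to 3′, because the first belongs to the gene that rose, the second to its partner filament that did not pass the test, and the last shares a motif with each of them. Capitals mark TATAAA or TTCNNNGAA, the palindrome bound by STAT factors, both searched on both strands:

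Vim: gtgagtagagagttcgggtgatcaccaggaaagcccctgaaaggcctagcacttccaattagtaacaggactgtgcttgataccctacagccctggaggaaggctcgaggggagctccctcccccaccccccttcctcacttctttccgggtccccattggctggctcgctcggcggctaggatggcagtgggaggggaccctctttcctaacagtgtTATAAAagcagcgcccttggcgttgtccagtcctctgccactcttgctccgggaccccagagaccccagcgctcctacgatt
Gfap: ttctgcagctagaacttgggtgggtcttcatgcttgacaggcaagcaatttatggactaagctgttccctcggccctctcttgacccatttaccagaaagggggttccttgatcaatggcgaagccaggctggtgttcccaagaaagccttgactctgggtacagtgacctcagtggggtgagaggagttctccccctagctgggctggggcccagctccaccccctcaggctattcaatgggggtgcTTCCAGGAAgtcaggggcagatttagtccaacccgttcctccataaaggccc
Agt: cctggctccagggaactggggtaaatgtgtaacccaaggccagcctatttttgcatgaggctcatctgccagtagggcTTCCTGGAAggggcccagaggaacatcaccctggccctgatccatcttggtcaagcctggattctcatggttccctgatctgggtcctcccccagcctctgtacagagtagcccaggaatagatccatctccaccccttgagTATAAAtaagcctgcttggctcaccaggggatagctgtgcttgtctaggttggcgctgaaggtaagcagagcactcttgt

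TATAAA stood 32 bases before the Vim start and 30 bases before the Agt start, and 13.6% of 32851 promoter windows hold it. TTCNNNGAA was found in the Gfap window from 2 bases before the start, as TTCCAGGAA, and in the Agt window from 172 bases before it, as TTCCTGGAA. Of all windows 8.3% hold TTCNNNGAA, and 1.15% hold the narrower TTCCNGGAA, which lies within it and which both matches satisfy. These matches are descriptions of the letters and were not tested as sites.

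The level of each gene is given as RPKM, reads scaled to the kilobases of exon and to the library total, so that genes of different length can be compared. The median over the 17 libraries was 370 for Clu and 306 for Gfap, the highest of the members. It was 46.6 for S100b, 40.7 for Agt, 40.6 for Serpina3n, 36.6 for Gja1, 28.8 for Aldh1l1, 22.8 for Aqp4 and 18.8 for Sox9, and it was lowest, 6.11, for Vim. The gap from Gfap to S100b and that from Sox9 to Vim held in 17 of 17 libraries. The neighbours between them were not ordered in every library: Clu was above Gfap in 13 of 17, S100b above Agt in 12, Agt above Serpina3n in 10, and Aqp4 above Sox9 in 12. Gfap, S100b, Aldh1l1 and Aqp4 overlap genes on the opposite strand, and Aldh1l1 also overlaps Gm45901 and Gm44236 on its own strand. The labels name a strand-specific kit and the methods a protocol without strand, so reads of the opposite-strand partners may be included in these levels. Reads of the same-strand partners of Aldh1l1 may be included with either protocol.

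The values varied between mice of one group to very different extents. The coefficient of variation within groups, on the scale of normalized counts, was 24.6% for Serpina3n, 24.1% for Aqp4 and 19.7% for Gfap, against 9.68% for S100b and 8.41% for Clu. Serpina3n ranged 2.32-fold over the 17 libraries, Aqp4 2.19-fold and Clu 1.39-fold. Single mice stood at the edge of several genes together. Plasma mouse 7150 had the highest Gfap, S100b, Vim and Serpina3n of its group and the lowest Gja1, and platelet fraction mouse 7595 had the highest S100b and Serpina3n and the lowest Aldh1l1, Agt and Clu.

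**Figure D1:**
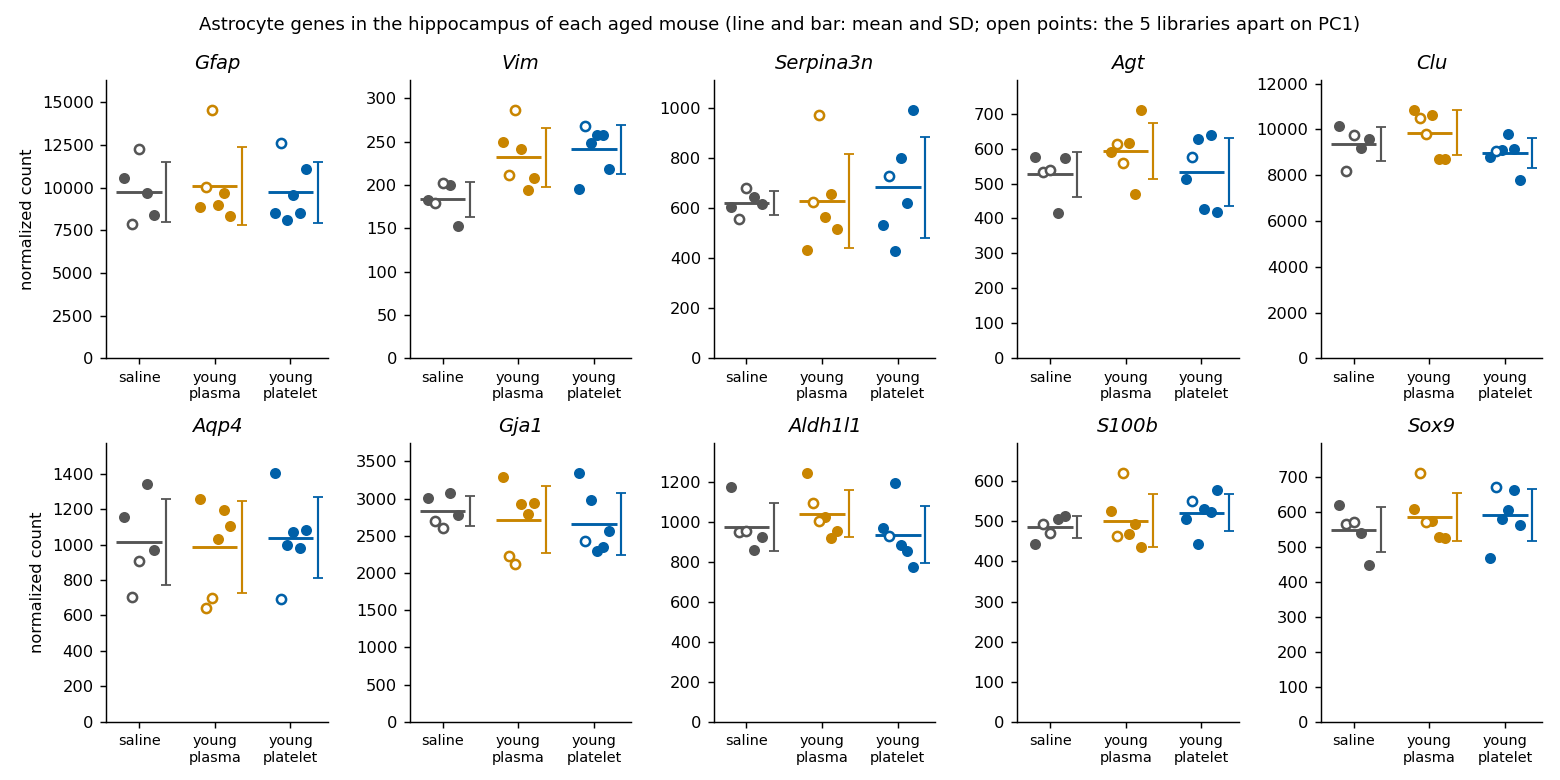
Normalized count (vertical axes, from 0) of each of the 10 genes in each mouse, by treatment. Points are mice, horizontal lines the group mean and side bars the SD, with the treated mice of both tables put on the scale of the plasma table; open points are the 5 libraries apart on the first principal component. Vim sits higher in both treated groups, with 5 of 6 mice of each above every saline mouse, while the groups overlap widely for Gfap, Serpina3n and Aqp4.

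Vim, which encodes vimentin, was the 1 of the 10 genes that passed the threshold of the study, an unadjusted P under 0.05, after young plasma. Of 13594 genes tested, 3.35% passed in this comparison, 1.85% as higher and 1.51% as lower. Vim had normalized counts of 182, 179, 203, 200 and 152 in the 5 saline mice. After young plasma the lowest value was 194, the median 227 and the highest 287. 5 of the 6 plasma mice were above every saline mouse, and the sixth lay between the saline values. The mean was 232 ± 34.2 (SD, n = 6) against 183 ± 20.2 (SD, n = 5), a ratio of 1.26 with a 95% interval from 1.05 to 1.51. The log2 difference was 0.33 with an SE of 0.12 (limma, unadjusted P = 0.0171, exact permutation P = 0.0195). After Benjamini-Hochberg adjustment over all genes the limma p was 0.9997, and no gene passed at 0.05 after adjustment.

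Vim was also the 1 member that passed after young platelets, where 3.87% of 13603 genes passed, 2.41% as higher and 1.46% as lower. On the scale of this table the saline mice had 183, 180, 204, 201 and 153 normalized counts. After young platelets the lowest value was 197, the median 254 and the highest 269. Again 5 of 6 treated mice were above every saline mouse, and 4 of the 6 lay close together at the top, between 250.2 and 269. The mean was 242 ± 28.2 (SD, n = 6) against 184 ± 20.4 (SD, n = 5), a ratio of 1.31 with a 95% interval from 1.11 to 1.56. The log2 difference was 0.39 with an SE of 0.11 (limma, unadjusted P = 0.00449, adjusted p = 0.998, exact permutation P = 0.0108). The smallest P that the exact test allows with these group sizes is 0.00216.

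Without the 5 libraries apart, the log2 difference of Vim was 0.33 after young plasma (limma, unadjusted P = 0.0493) and 0.40 after young platelets (limma, unadjusted P = 0.0166). When each library was left out in turn, the call held in 11 of 11 fits for young platelets. It held in 10 of 11 for young plasma: without saline mouse 7596, the lowest of all 17, the log2 difference was 0.27 and the unadjusted P from limma 0.0518. Vimentin is also made by ependymal, endothelial and fibroblast cells. The summed normalized count of 11 ependymal markers ranged from 173 to 341 after saline, from 191 to 748 after young plasma and from 163 to 893 after young platelets. That of 8 endothelial markers ranged from 3005 to 4016, from 3316 to 4592 and from 3078 to 3973, and that of 7 fibroblast markers from 1028 to 2101, from 921 to 2384 and from 618 to 2254. The median log2 difference of the 10 ependymal markers tested was 0.46 after young plasma and 0.65 after young platelets. Without the 5 libraries apart it was 0.19 and 0.53. Of these markers 9 and 10 were positive, beside 47.3% and 50.5% of all genes. The median was 0.03 and -0.03 for endothelial and 0.11 and -0.01 for fibroblast markers. With the ependymal level as a term in the fit, Vim differed by 0.34 (limma, unadjusted P = 0.0365) and 0.36 on the log2 scale (limma, unadjusted P = 0.0158). Vim reads were also present in the CD11b-selected microglia libraries described below. Of 6 microglia markers 0 passed after young plasma and 2 passed as lower after young platelets, Tmem119 and Siglech, beside 1.46% of all genes. Without the 5 libraries apart 0 and 2 passed as lower. There the unadjusted P from limma after young platelets was 0.0261 for Tmem119 and 0.0985 for Siglech. The median log2 difference of the 6 markers over all libraries was -0.07 and -0.24. Their summed normalized count ranged from 5377 to 6754 after saline, from 4794 to 7076 after young plasma and from 4624 to 5871 after young platelets. The part of the endothelial, fibroblast and microglia markers in the Vim result was not tested.

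**Figure D2:**
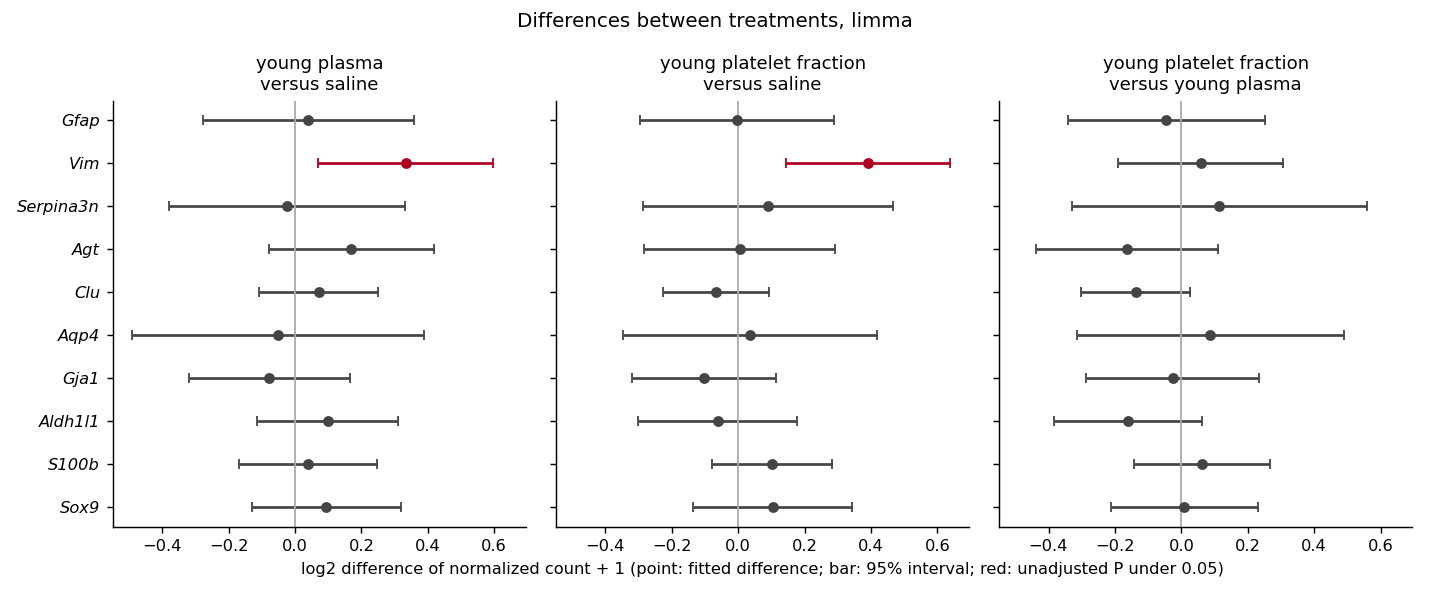
Log2 difference of normalized count + 1 (horizontal axis) of each gene in the 3 comparisons. Points are the fitted differences and bars their 95% intervals, with 5 or 6 mice per group; red marks an unadjusted P under 0.05 by limma. The interval of Vim lies above 0 in both comparisons with saline, and those of the other 9 genes cross 0 in all 3.

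Gfap, the filament most used as a mark of reactive astrocytes, did not differ beyond the spread between mice. Its normalized counts in the saline mice were 10555, 7869, 12240, 9689 and 8423. After young plasma they ran from 8335 through a median of 9343 to 14571, and after young platelets from 8136 through 9089 to 12681. The 3 groups overlapped over nearly their whole range. The log2 difference was 0.04 after young plasma, with a 95% interval from -0.28 to 0.36, and -0.0046 after young platelets, with an interval from -0.30 to 0.29. These intervals leave room for a ratio between 0.825 and 1.28 and between 0.814 and 1.22.

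Serpina3n had a narrow spread after saline and a wide one in both treated groups. The saline values were 606, 558, 683, 645 and 616. After young plasma the lowest, median and highest values were 433, 596 and 975, and after young platelets 430.3, 679 and 1000.4. Of the 6 plasma mice 1 lay above and 2 below every saline mouse, and of the 6 platelet fraction mice 3 lay above and 2 below. The SD was 46.5 after saline against 187 after young plasma, and 47.2 against 203 for young platelets; the difference in spread was not tested. With 1 library left out in turn the SD after young plasma ran from 89.3, without mouse 7150, to 209, that after young platelets from 149 to 226, and that after saline from 34.4 to 53.6 on the plasma scale. The log2 differences were -0.03 (95% interval -0.38 to 0.33) and 0.09 (-0.29 to 0.47). The 10 Serpina3 paralogs listed beside it were low: 6 stayed under a normalized count of 10 in every library and 1, Serpina3g, was tested.

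Agt, whose product is cut to the angiotensins, had 577, 532, 537, 417 and 572 normalized counts in the saline mice. After young plasma the values ran from 470 through 601 to 711, with 4 of 6 mice above every saline mouse. After young platelets they ran from 419 through 547 to 641, with 3 of 6 above. The log2 difference was 0.17 after young plasma (95% interval -0.08 to 0.42, limma, unadjusted P = 0.166). It was 0.01 after young platelets (95% interval -0.28 to 0.29). Without plasma mouse 7159, the lowest of its group, the former was 0.23 with an unadjusted P of 0.0492 by limma. This was the 1 call among 11 fits with 1 library left out, which ran from 0.09, without saline mouse 7155, to 0.23. A fit with runs of consecutive mouse numbers as a block was added after seeing the data. It draws nothing from mouse 7159, because the run of that mouse holds no saline mouse. There the Agt difference after young plasma was also 0.23, with an unadjusted P of 0.0272 by limma. In that fit 1218 of 13594 genes passed unadjusted (517 higher and 701 lower) and 0 adjusted, whereas 456 passed unadjusted without the block. Beside these, 2 of the 10 members passed with the block, Vim and Agt.

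Clu, the chaperone, had 10130, 8203, 9777, 9193 and 9560 normalized counts in the saline mice. The values ran from 8689 through 10143 to 10866 after young plasma and from 7844 through 9124 to 9847 after young platelets. All groups overlapped. The log2 difference was 0.07 (95% interval -0.11 to 0.25) and -0.07 (-0.23 to 0.09), the narrowest intervals of the 10 genes.

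Aqp4 and Gja1, the endfoot water channel and the gap junction protein, did not differ beyond the spread between mice, and both were lower at the median in the 5 libraries apart. Aqp4 had 1159, 705, 907, 1341 and 969 normalized counts in the saline mice. It ran from 643 through 1071 to 1257 after young plasma and from 699 through 1041 to 1412 after young platelets. In each group the lowest mouse was one of the 5 libraries apart. Over all groups those 5 ranged from 643 to 907 with a median of 696, and the other 12 from 969 to 1405 with a median of 1094, so the 2 sets did not overlap; the component was computed from these genes among others, so this is a description. The log2 difference of Aqp4 was -0.05 (95% interval -0.49 to 0.39) after young plasma and 0.04 (-0.35 to 0.42) after young platelets.

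Gja1 had 3007, 2702, 2610, 3078 and 2787 normalized counts in the saline mice. It ran from 2121 through 2862 to 3286 after young plasma. After young platelets it ran from 2305 through 2513 to 3363, with 4 of 6 mice below every saline mouse and 1 above. The log2 difference was -0.08 (95% interval -0.32 to 0.16) and -0.10 (-0.32 to 0.11). Its median was 2432 in the 5 libraries apart and 2937 in the other 12.

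The remaining identity genes, Aldh1l1, S100b and Sox9, also kept within the spread between mice. Aldh1l1 ran from 861 to 1177 after saline, from 922 to 1247 after young plasma and from 781 to 1201 after young platelets, with log2 differences of 0.10 and -0.06. S100b ran from 445 to 514, from 436 to 621 and from 446 to 581, with 4 of 6 platelet fraction mice above every saline mouse and log2 differences of 0.04 and 0.10 (95% interval of the latter -0.08 to 0.28). Sox9 ran from 447 to 620, from 524 to 711 and from 469 to 673, with log2 differences of 0.09 and 0.10. For the 3 genes together the 95% intervals of both comparisons reached from -0.30 to 0.34 at the most.

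As a set, 7 of the 10 genes had a positive log2 difference after young plasma and 6 of 10 after young platelets. The median difference of the members was 0.06 and 0.02, beside a median of -0.0096 and 0.0021 over all genes tested, of which 47.3% were positive and 52.7% negative after young plasma and 50.5% positive and 49.5% negative after young platelets. No member separated all treated from all saline mice, as 0.103% of all genes did upwards and 0.0883% downwards after young plasma, and 0.14% and 0.118% after young platelets. The treatments were also set against each other, where 1.9% of 13693 genes passed (0.869% higher after young platelets and 1.03% lower) and 0 of the 10 members did. Of the members 5 were positive and 5 negative, beside 54% and 46% of all genes, and 0 separated the groups, beside 0.0365% and 0.0511% of all genes. Clu came nearest: its log2 difference, young platelets minus young plasma, was -0.14 (limma, unadjusted P = 0.0956, exact permutation P = 0.0931), and each of the 6 platelet fraction mice was below the plasma median. Leaving out plasma mouse 7159 or 7594, the 2 lowest in Clu of the plasma group, brought the unadjusted P of Clu to 0.0438 and 0.0435 by limma. These were the 2 calls among 12 fits with 1 library left out, in which the log2 difference of Clu ran from -0.17 to -0.098. Aldh1l1 differed by -0.16 (95% interval -0.38 to 0.06), and without platelet fraction mouse 7151, its highest, by -0.23 with an unadjusted P of 0.024 by limma. That was the 1 call for Aldh1l1 among the 12 fits, which ran from -0.23 to -0.11. Agt differed by -0.16 (-0.44 to 0.11) and Vim by 0.06 (-0.19 to 0.31).

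A list of 34 other astrocyte genes was read beside the members. After young plasma 0 of 34 passed as higher and 1 as lower, beside the 1.51% of all genes that passed as lower: Dio2, the deiodinase that activates thyroid hormone, fell by 0.29 on the log2 scale (limma, unadjusted P = 0.0344), from 236 ± 17.8 (SD, n = 5) to 195 ± 32.2 (SD, n = 6). After young platelets 0 passed as higher and 2 as lower, beside 1.46% of all genes. The glypican Gpc5 fell by 0.26 (limma, unadjusted P = 0.00971), from 710.02 ± 66.7 to 592 ± 48.8, with 5 of 6 mice below every saline mouse, and the glutamate transporter Slc1a3 fell by 0.19 (limma, unadjusted P = 0.048). Dio2 kept its call in 5 of 11 fits with 1 library left out, Gpc5 in 11 and Slc1a3 in 3. Without the 5 libraries apart the counts lower were 0 of 34 and 2 of 34, and with the ependymal term 0 of 34 in both. In these fits Gpc5 had an unadjusted P of 0.0441 and 0.0527 by limma, and Slc1a3 0.2 and 0.298. Its median difference was 0.0017 for young plasma and -0.09 for young platelets, where 28 of 34 differences were negative beside the 49.5% of all genes. For young platelets the median was -0.07 without the 5 libraries and -0.0039 with the ependymal term. Gpc5 and the acyl-CoA synthetase Acsbg1 were lower after young platelets than after young plasma (log2 differences -0.21 and -0.18, limma, unadjusted P = 0.0277 and 0.0436, and 0.0359 and 0.0475 without the 5 libraries). Gpc5 kept that call in 9 of 12 fits with 1 library left out and Acsbg1 in 4 of 12, and with the ependymal term the unadjusted P from limma was 0.032 and 0.0549.

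Genes of reactive astrocytes were tested as 3 lists. Beside them, 1.85% of all genes passed as higher after young plasma and 2.41% after young platelets. Of 10 pan-reactive genes 7 were tested, and 0 passed in either comparison with saline. The smallest P belonged to the sphingosine phosphate receptor S1pr3 after young plasma (log2 difference 0.20, limma, unadjusted P = 0.227) and to the hyaluronan receptor Cd44 after young platelets (0.23, limma, unadjusted P = 0.313). Of 11 genes linked to the neurotoxic (A1) state, 1 passed after young plasma and 0 after young platelets: the adhesion protein Amigo2 rose by 0.40 on the log2 scale (limma, unadjusted P = 0.0483), from 51.0 ± 10.8 (SD, n = 5) to 67.1 ± 11.1 (SD, n = 6). Its median difference was 0.30 for young plasma and 0.06 for young platelets, and 0.10 and 0.20 without the 5 libraries apart, so the order of the treatments turned. Of 12 genes linked to the A2 state 6 were tested, and 1 passed in each comparison. The sphingosine kinase Sphk1 rose by 0.76 after young plasma, from 29.5 ± 13.4 to 48.2 ± 15.7 (limma, unadjusted P = 0.0483) and the membrane protein Tm4sf1 by 0.30 after young platelets, from 176 ± 17.6 to 219 ± 40.4 (limma, unadjusted P = 0.0387). Amigo2 lost its call in 9 of 11 fits with 1 library left out, Sphk1 in 7 of 11 and Tm4sf1 in 6 of 11. With the 5 libraries apart removed, 1 A1 and 1 A2 gene passed after young plasma, and 0 and 2 after young platelets.

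The families of the members were read in the same way, beside the same 1.85% and 2.41% of all genes that passed as higher. Besides Gfap and Vim, 10 other intermediate filament genes were tested and 0 passed in either comparison with saline. The smallest P belonged to peripherin (Prph), a filament of neurons, after young plasma (0.43, limma, unadjusted P = 0.239) and to the nuclear lamin Lmnb1 after young platelets (0.28, limma, unadjusted P = 0.317). Of the connexins other than Gja1, 0 of 5 passed after young plasma and 2 of 6 after young platelets: Gjb1 (0.47, limma, unadjusted P = 0.0256) and Gjc3 (0.36, limma, unadjusted P = 0.0204), both connexins of oligodendrocytes. Oligodendrocyte markers moved with this result: 9 of 11 passed as higher after young plasma and 11 of 11 after young platelets. Their summed normalized count ranged from 40939 to 79987 after saline, from 52517 to 117293 and from 64721 to 104263. Their part in the astrocyte results was not tested. With the 5 libraries apart removed, 0 connexins passed, and of the 11 oligodendrocyte markers 0 passed after young plasma and 5 after young platelets.

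Of the S100 genes besides S100b, 0 of 7 passed after young plasma and 2 of 7 after young platelets. As higher, 1.85% and 2.41% of all genes passed in these comparisons. S100a4 rose by 1.04 on the log2 scale (limma, unadjusted P = 0.0102), from 10.3 ± 4.67 to 21.7 ± 7.86 normalized counts, and S100a16 by 0.21 (limma, unadjusted P = 0.0291). Without the 5 libraries apart 0 passed. Around Agt, 6 genes of the renin-angiotensin system were tested. Enpep, the aminopeptidase that turns angiotensin II into angiotensin III, rose by 0.53 after young plasma (limma, unadjusted P = 0.00975). It had 24.7 to 31.4 normalized counts in the saline mice and 32.0 to 55.0 in the plasma mice, so the groups did not overlap, as was so for 0.103% of all genes in that direction. Lnpep, the angiotensin IV-binding aminopeptidase, rose by 0.36 after young platelets (limma, unadjusted P = 0.0157), from 119 ± 15.0 to 153 ± 19.7, and differed by 0.29 between the treatments (limma, unadjusted P = 0.0311, and 0.0306 without the 5 libraries), a call kept in 5 of 12 fits with 1 library left out. Without the 5 libraries apart the log2 difference of Enpep was again 0.53 with an unadjusted P of 0.0572 by limma, and that of Lnpep 0.32 with 0.0325. Of the aquaporins besides Aqp4, 0 of 3 passed in either comparison, and Serpina3g had log2 differences of -0.17 and 0.37 that did not pass.

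**Figure D3:**
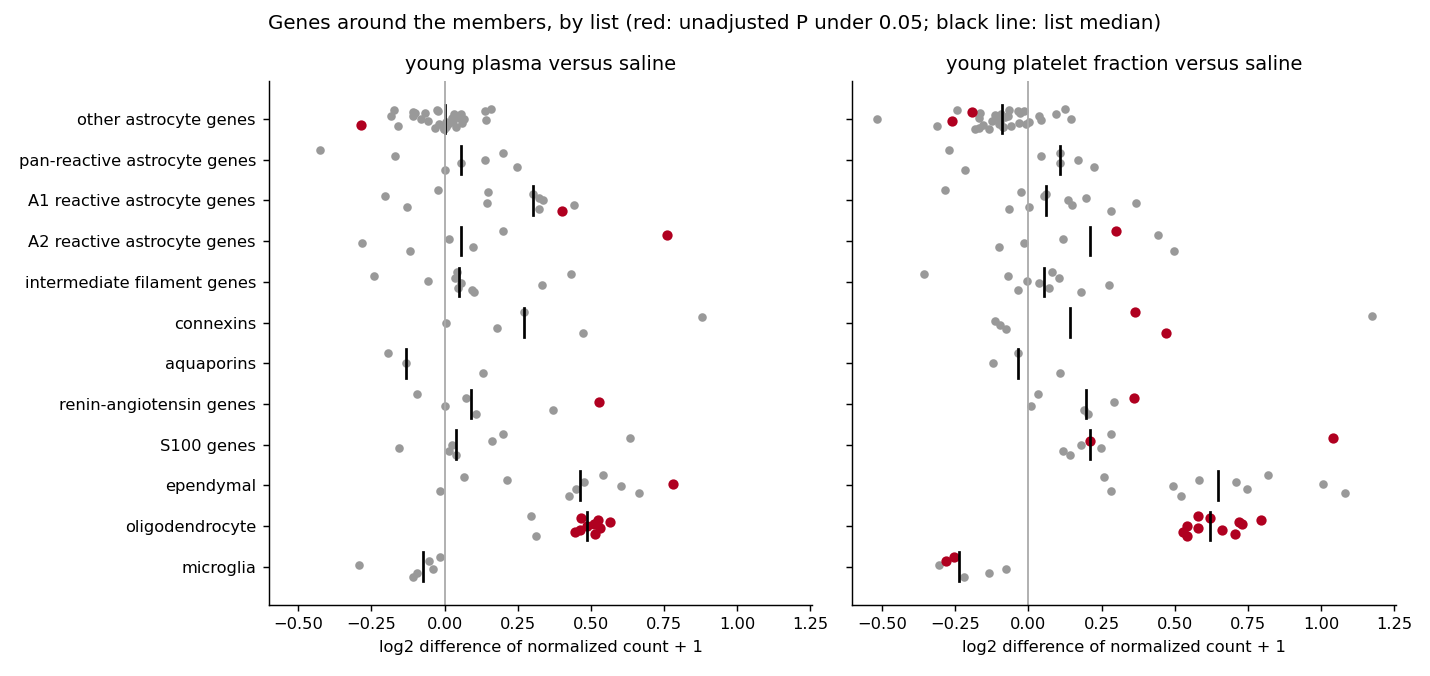
Log2 difference of normalized count + 1 (horizontal axis) for each tested gene of 9 lists around the members and 3 lists of marker genes, after young plasma (left) and young platelets (right) against saline. Points are genes, red points those with an unadjusted P under 0.05 by limma, and black lines the list median. Oligodendrocyte markers stand to the right in both panels, and the other astrocyte genes lie around 0 on the left and at a median of -0.09 on the right.

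To see which of the 10 genes varied together between mice, their levels were correlated across libraries after the group means were taken out, for all 45 pairs. Because the libraries fall into the 5 apart and the other 12, coefficients are given within the 12. For each pair named they are given over all 17 too. Over all 17 libraries 2 of the 45 pairs passed at an adjusted p of 0.05, both positive. Gfap with Serpina3n had a Pearson r of 0.76 (permutation P = 0.00072, adjusted p = 0.0225), and 0.69 without the 2 libraries farthest from the median. Aqp4 with Gja1 had an r of 0.78 (permutation P = 0.001, adjusted p = 0.0225), and 0.75 without the 2 farthest. Within the 12 libraries 0 of 45 passed, and the coefficients ran from -0.79 to 0.82. There Gfap and Serpina3n had a Pearson r of 0.77 (permutation P = 0.00623, adjusted p = 0.0934) and a Spearman rho of 0.68 (permutation P = 0.0188, adjusted p = 0.324), and without the 2 libraries farthest from the median r was 0.72. Vim and Sox9 had an r of 0.82 (permutation P = 0.00512, adjusted p = 0.0934) and a rho of 0.74 (permutation P = 0.0225, adjusted p = 0.324), with 0.63 without the 2 farthest. Over all 17 their r was 0.56 (permutation P = 0.0268, adjusted p = 0.173), and 0.25 without the 2 farthest. Within the 12 Aldh1l1 and Serpina3n had an r of -0.79 (permutation P = 0.00225, adjusted p = 0.0934) and a rho of -0.67 (permutation P = 0.0408, adjusted p = 0.357), with -0.58 without the 2 farthest. Over all 17 their r was -0.64 (permutation P = 0.0108, adjusted p = 0.0976), and -0.58 without the 2 farthest. Aqp4 and Gja1 had within the 12 an r of 0.63 (permutation P = 0.0364, adjusted p = 0.298) and a rho of 0.51 (permutation P = 0.112, adjusted p = 0.419). Within the 12 that r fell to 0.27 without the 2 farthest, so there the coefficient depended on those 2 libraries.

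**Figure D4:**
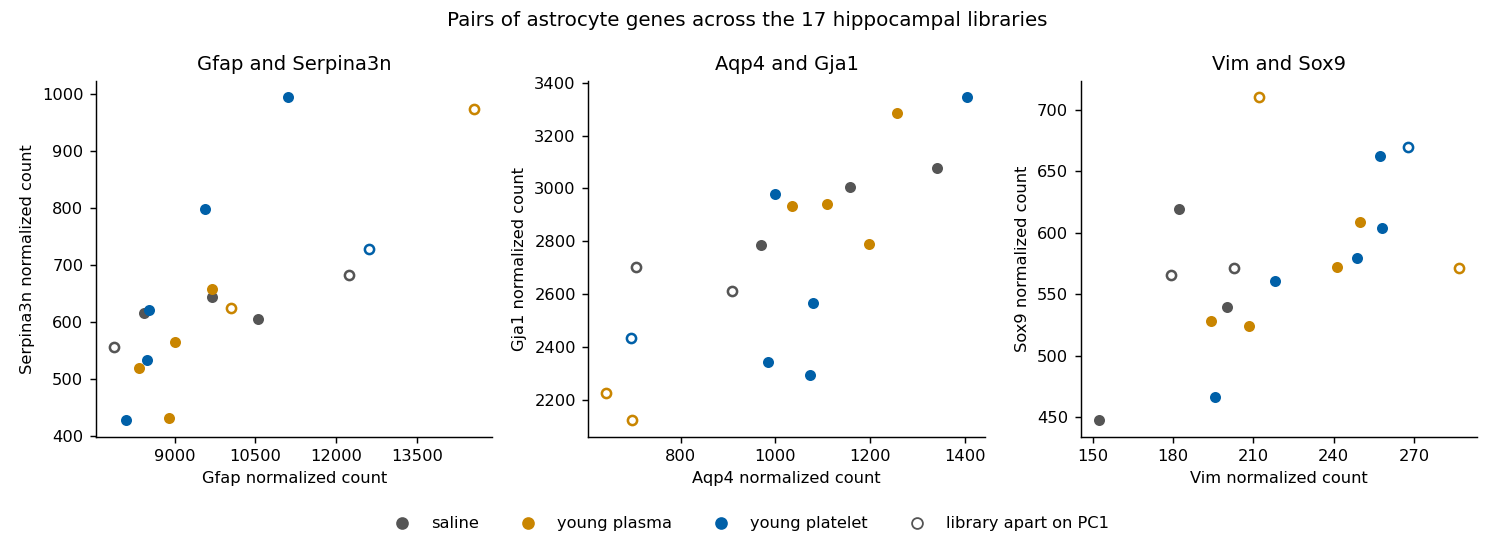
Normalized counts of Gfap and Serpina3n, Aqp4 and Gja1, and Vim and Sox9 in the 17 hippocampal libraries. Each point is a mouse, coloured by treatment, and open points are the 5 libraries apart on the first principal component; axes do not start at 0. Gfap and Serpina3n rise together among filled and open points, whereas the open points make up the low end of Aqp4.

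The members were also set against the 7 lists of marker genes, 70 relations in all, and 0 of 70 passed at an adjusted p of 0.1 in the 17 libraries or in the 12. Single coefficients were as large as those of the pairs. They ran from -0.73 (Aqp4 with neuron markers) to 0.73 (S100b with microglia markers) in the 17. In the 12 they ran from -0.80 (Agt) to 0.77 (Aqp4), both with microglia markers. Among the 10628 genes that averaged 50 or more normalized counts, those whose pattern over the 17 libraries was most like that of Vim were Zfp408, Eng and Fam214b, with a Pearson r of 0.76, 0.75 and 0.75 (0.75, 0.83 and 0.64 within the 12). Those most like Gfap were Nap1l4, Sec61a1 and Napa, at 0.90, 0.90 and 0.89, which came to 0.52, 0.56 and 0.68 within the 12. Those most like Serpina3n were Tpt1, Hpca and Sepw1, at 0.91, 0.91 and 0.88 (0.91, 0.89 and 0.85 within the 12). S100b was most like Il33, Ctss and Dusp3, at 0.89, 0.85 and 0.84. These genes are the extremes of many and share libraries and scaling with the members, and no test was made.

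Levels of the same genes were also read in a separate set of libraries, here called microglia libraries. They hold CD11b-selected cells of the hippocampus of aged C57/Bl6 mice given saline (n = 3) or platelet factor 4 (PF4, n = 4). Levels are given as RPM, reads scaled to the library total, without a test between the 2 sets. The summed level of 6 microglia markers was 27248 to 39764 there and 624 to 948 in the whole hippocampus. Gfap had 28.2 to 71.3 RPM in the 7 microglia libraries, against 1081 to 1952 in the 17 hippocampal ones. Serpina3n had 0 reads in 7 of 7 microglia libraries, which allows up to 0.0825 to 0.151 RPM by library, against 58.6 to 135 in the hippocampus. That limit covers counting error only, and why no read was counted was not tested. Gfap had 559 to 1810 reads in the same libraries. Vim was the 1 member whose median was higher in the microglia libraries, at 55.0 (range 25.4 to 151) against 29.0 (range 20.5 to 38.4). Clu ranged from 9.44 to 414 in the microglia libraries. Aldh1l1 ranged from 0.0275 to 110 there against 105 to 174 in the hippocampus, and Agt from 0 to 74.4 against 56.6 to 96.9. For Aldh1l1 and Agt the highest microglia library thus lay above the lowest hippocampal one. Gja1 ranged from 1.43 to 150 and Sox9 from 0.0275 to 40.0 between the microglia libraries. These are levels of the preparation, and the part of other cells carried over in them, also for Vim, was not tested. Vim normalized counts ran from 1060 to 3712 in the saline microglia and from 639 to 2365 after PF4, and Gfap from 694 to 1205 and from 715 to 1745; the groups overlapped for both.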

How the data were processed

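Bulk RNA was sequenced from 17 hippocampi and 7 microglia preparations. The authors used STAR 2.7.3a (mm10) for alignment and RSEM 1.3.1 for counts. The methods name a modified Smart-Seq2 protocol and the labels a strand-specific poly(A) kit. The signal the authors deposited is, per library, the read count over the DESeq2 (1.38.0) size factor. The authors also deposited log2 fold changes, p-values and score columns (standard error and test statistic) of their own comparisons, which were not used. Columns of unmapped samples numbered 0.

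Values were whole multiples of 1 step per library, so reads were recovered for 100% of values, within 0.01 of a read. Saline reads were the same in both hippocampal tables, and saline normalized counts were 0.418% to 0.666% higher in the platelet table. The 2 treatments were put on 1 scale through these libraries. Reads carry no molecular identifiers, so limits cover counting error only.

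For each pair of groups, limma 3.58.1 (R 4.3.3, variance trend) was run on log2(normalized count + 1) of genes that reached 10 in 5 libraries or more. Differences are on that scale and understate changes of low genes. The threshold, an unadjusted P of 0.05, follows the study, and Benjamini-Hochberg values are over all genes. Members had two-sided exact permutation tests, and correlations 100000 permutations within groups (scipy 1.17.1). Exon lengths are from GENCODE, positions and promoters from RefSeq GRCm38.p6. The labels give each hippocampal library as 1 mouse; p-values measure the spread between these mice. The fit was tested on simulated data.

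The members and gene lists were chosen with earlier results of these data known. The text names all 10 members, up to 5 genes per list and comparison that passed, the gene of smallest P in some lists with none, and the 3 genes most like a member. Alternatives tried were other pseudocounts (0.5, 5), filters (none, 50), scalings (TMM, library totals) and tests (edgeR 4.0.16, DESeq2 1.42.0, on recovered reads), 1 fit for all groups, an ependymal marker term and leaving out libraries. Leaving out the 5 libraries apart and a block by runs of mouse numbers were chosen after seeing the data.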

Additional observations from a re-analysis of the deposited data

Results flagged for a closer look

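The highest or lowest sample of each group was tested for a gap to the nearest of the others, for the 10 genes in 3 groups, 30 sets of values in all. 2 sets passed, where chance gives about 1 in 20. Gfap of plasma mouse 7150 was 14571 normalized counts, against 10040 for the nearest of the 6 mice. The gap was 0.727 of the range, above the critical value of 0.625. Without this mouse the log2 difference of Gfap between young plasma and saline was -0.07. Agt of saline mouse 7155 was 417 normalized counts against 532 for the nearest of the 5 mice, a gap of 0.721 of the range beside a critical value of 0.71. Without that mouse the log2 difference of Agt after young plasma was 0.09.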

How the results depend on the processing

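Under pseudocounts, filters, TMM and library-total scaling, edgeR, DESeq2, 1 fit of all groups, the ependymal term, a replicate block by runs of mouse numbers and removal of the 5 libraries apart (both chosen after seeing the data), 341 member differences kept their direction and side of the threshold, 18 turned direction and 1, Agt with the block, gained a call. None of the 18 was called, and the cause was not tested. Vim stayed called against saline in each of these settings. Without the 5 libraries the young plasma differences of Gfap, S100b and Gja1 were -0.086, -0.021 and 0.013, those of Aqp4 and Agt after young platelets -0.061 and -0.00089, and those of Gfap and Aqp4 between the treatments 0.020 and -0.061. With the ependymal term, Gfap, Aldh1l1 and Serpina3n after young platelets were 0.022, 0.0094 and -0.043, and Gja1 and Sox9 between the treatments 0.0041 and -0.014. Sox9 there was -0.00029 with TMM and -0.0024 with library totals, and Serpina3n after young plasma 0.028 with edgeR and 0.022 with DESeq2. The ependymal term left 234 and 279 genes called against saline, and no filter gave 473 between the treatments. At an adjusted p of 0.05, limma and edgeR on all libraries called 0 genes in each comparison and DESeq2 0, 11 and 0, limma without the 5 libraries called 1 gene after young plasma, while at an unadjusted 0.05 edgeR called 473, 527 and 279 and DESeq2 505, 562 and 276. Of 45 member pairs 0 passed without the 5 libraries, against 2 with all, and library totals also gave 2.

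Leaving out each library in turn gave 300 to 621 genes called after young plasma, 347 to 876 after young platelets and 209 to 446 between the treatments, with 0 to 2, 1 to 1 and 0 to 1 members called. Of the member differences 298 kept their direction and side, 37 turned direction, 4 gained a call (Agt, Aldh1l1 and Clu, as reported) and 1 lost it (Vim without saline mouse 7596). After young plasma the ranges that crossed 0 were -0.071 to 0.13 for Gfap, -0.17 to 0.063 for Aqp4, -0.025 to 0.077 for S100b and -0.16 to 0.073 for Serpina3n. After young platelets they were -0.083 to 0.082 for Gfap, -0.088 to 0.15 for Aqp4, -0.14 to 0.0080 for Aldh1l1, -0.029 to 0.21 for Serpina3n and -0.077 to 0.071 for Agt. Between the treatments they were -0.12 to 0.066 for Gfap, -0.027 to 0.20 for Aqp4, -0.095 to 0.032 for Gja1, -0.0035 to 0.25 for Serpina3n and -0.029 to 0.075 for Sox9.

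The labels give each hippocampal library its own mouse number and name no shared cage, litter or day. In number order the mice fall into 6 runs without a repeated treatment, 5 of which hold all 3 treatments. The deviations from the group means correlated from -0.24 to 0.47 over the 16 pairs within a run (median 0.21, 10 pairs over 0.1), against a median of -0.06 over 80 other pairs, and 8 of 17 libraries correlated best with their own run. The 5 pairs of saline and plasma mice within a run were at 0.43, 0.45, 0.47, 0.21 and 0.22. With the runs as a replicate block, limma called 1218 genes after young plasma, 331 after young platelets and 408 between the treatments, and 2, 1 and 0 members. Without the block 456, 527 and 260 genes were called. Vim was 0.38 and 0.37 against saline, Agt 0.23 after young plasma and -0.051 after young platelets, and Gfap after young platelets 0.030. The microglia libraries entered no test.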
